A study of Mus musculus with 8 samples.

Results

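The genes described here are 31 that mark macrophages, neutrophils and antigen-presenting cells, followed in whole mouse gastrocnemius, the large calf muscle. They were taken as a named list, and each was represented by the probe set (a group of probes against 1 transcript) with the highest mean log2 signal among those annotated to that gene alone. All 31 had such a probe set, out of 18193 genes on the array. The mean signal of 25 of them lay above 19.4, the median of all probe sets, and these 25 were tested among 11062 genes. Cd68, Aif1, Cd163, Cx3cr1, Ccr2 and Itgam lay below that level and are described without a test.

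Total RNA from 4 GRKO and 4 WT muscles was hybridised to 1 Affymetrix array per sample. The GRKO samples carry a knockout of the glucocorticoid receptor, the transcription factor through which cortisol and corticosterone act, encoded by Nr3c1, and the WT samples are labelled wild type, with C57/Bl6J as the strain background in both groups. The design text writes the knockout as GR(i)skm-/-, a name used for mice in which the receptor gene is inactivated in skeletal muscle fibres, so that leukocytes and the other cells between the fibres keep it. The labels do not give the Cre driver, any inducing agent, the alleles of the WT animals, age or sex. Nor do they say that each sample is another animal, and the p-values then rest on a spread that may be technical.

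Resident macrophages lie between muscle fibres, clear debris and secrete growth factors, while neutrophils enter muscle from the blood, mostly after injury. Antigen-presenting cells, which include dendritic cells, macrophages and B lymphocytes, load peptides onto class II molecules for display to T lymphocytes. Many genes of the list are not restricted to 1 of these cells: Ptprc, Cd52, Cd53 and Coro1a are expressed by lymphocytes as well as by myeloid cells, and class II genes by B lymphocytes. In RNA from a whole muscle, fewer cells of a type and less RNA per cell cannot be told apart.

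One array stood apart before any member was considered. On WT replicate 4 the median signal of the 64 control probe sets was 133, against 59 to 85 on the other 7 arrays, and its median signal over all probe sets was 26, against 18 to 24. The muscle fibre genes Acta1, Ckm and Myh4 were bright on every array, with signals of at least 9274, and were highest on WT replicate 4. The brightest Nr3c1 probe set had signals of 222, 169, 120 and 105 on GRKO replicates 1 to 4, against 289, 213, 287 and 513 on WT replicates 1 to 4. Its groups overlapped (log2 fold change -1.07 ± 0.29 SE, limma adjusted p = 0.777). The next brightest probe set had 134, 79, 76 and 94 in GRKO muscle, against 377, 307, 307 and 352 in WT muscle, with no overlap (log2 fold change -1.84 ± 0.19 SE over all probe sets). The other Nr3c1 probe sets with a mean signal above 19.4 had log2 fold changes of -1.96, -0.32 and -0.38.

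Promoters of 22 of the 31 members were found in the RefSeq table (GRCm38.p6, 250 bases before and 50 after the start of transcription). Those of 5 members are shown. Their signals varied widely between arrays of a group and were high and low on the same arrays, and each promoter shown held a motif marked here. Ctss also varied in this way and held the PU box letters, but is not shown. Capitals mark the class II Y box, written CTGATTGG, an inverted CCAAT element that is part of the control region of class II genes, in the first pair, and the PU box core GAGGAA, the recognition element of PU.1, which Spi1 encodes, in the others.
H2-Aa, chr17:34287774-34288073, minus strand: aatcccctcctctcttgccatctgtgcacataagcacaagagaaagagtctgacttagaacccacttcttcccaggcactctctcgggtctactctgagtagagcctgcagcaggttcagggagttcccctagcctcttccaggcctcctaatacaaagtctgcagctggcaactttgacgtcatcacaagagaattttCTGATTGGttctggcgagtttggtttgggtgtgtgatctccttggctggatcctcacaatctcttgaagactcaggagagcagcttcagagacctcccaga
H2-Eb1, chr17:34305617-34305916, plus strand: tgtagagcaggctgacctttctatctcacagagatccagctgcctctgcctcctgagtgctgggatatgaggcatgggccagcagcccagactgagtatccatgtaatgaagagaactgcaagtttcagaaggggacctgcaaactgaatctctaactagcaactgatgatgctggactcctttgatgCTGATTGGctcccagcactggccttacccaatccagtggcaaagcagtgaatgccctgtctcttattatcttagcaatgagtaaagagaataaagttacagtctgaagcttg
Cd53, chr3:106790100-106790399, minus strand: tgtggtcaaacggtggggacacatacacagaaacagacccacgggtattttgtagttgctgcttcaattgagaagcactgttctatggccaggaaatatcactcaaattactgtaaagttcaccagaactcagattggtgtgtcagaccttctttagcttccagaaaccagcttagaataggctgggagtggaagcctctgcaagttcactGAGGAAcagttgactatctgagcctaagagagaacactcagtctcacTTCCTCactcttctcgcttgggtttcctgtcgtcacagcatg
Laptm5, chr4:130913066-130913365, plus strand: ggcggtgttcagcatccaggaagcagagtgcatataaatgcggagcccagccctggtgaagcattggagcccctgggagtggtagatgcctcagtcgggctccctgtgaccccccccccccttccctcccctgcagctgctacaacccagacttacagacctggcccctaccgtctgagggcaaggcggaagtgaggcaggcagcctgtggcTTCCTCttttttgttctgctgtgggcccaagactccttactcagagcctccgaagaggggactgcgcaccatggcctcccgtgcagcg
Ptprc, second start, chr1:138175256-138175555, minus strand: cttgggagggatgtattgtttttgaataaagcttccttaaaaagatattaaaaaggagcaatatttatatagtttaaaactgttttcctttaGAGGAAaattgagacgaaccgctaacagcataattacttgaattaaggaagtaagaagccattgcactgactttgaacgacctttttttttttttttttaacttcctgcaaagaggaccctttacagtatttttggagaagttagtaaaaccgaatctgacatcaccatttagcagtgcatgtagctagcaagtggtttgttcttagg
Motifs were searched on both strands. The Y box letters were present in the promoters of 2 members, H2-Aa and H2-Eb1, on the strand of the gene, beginning 51 and 62 bases before the start, and in 4.10% of all 32851 promoters of this length. The PU box letters were present in 12 of the 22 members and in 28.3% of all promoters. Holders that varied less within a group than those shown included C1qb, C1qc, Mrc1 and S100a8. Their within-group SD of log2 signal was 0.35, 0.48, 0.56 and 0.45, against 1.87 for Cd53, 1.37 for Laptm5 and 2.54 for Ptprc. Cybb, at 0.78, held the letters too and was low on the same arrays as the members shown. Cd68, Aif1 and Itgam, described without a test, also held them. The Coro1a promoters held neither motif, and Coro1a was high and low on those same arrays. The other Ptprc promoter, which is not shown, also held neither. The Ptprc starts were numbered by chromosome position, so the start shown lies upstream, the gene being on the minus strand. AGAACA, a core hexamer of the glucocorticoid response element, was present in 7 of the 22 and in 19.0% of all promoters. A match describes the letters in the window and does not show binding. Whether any motif goes with the spread between arrays was not tested.

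The comparison of GRKO with WT muscle asks which transcripts differ when the receptor gene is disrupted. No member passed the test between the groups. In limma, 0 of the 25 tested members were lower and 0 were higher in GRKO muscle past an adjusted p of 0.05, where 0.0542% of all 11062 genes were lower and 0.0% were higher. The smallest adjusted p of a member was 0.880. At an unadjusted p under 0.05 there were also 0 members, against 2.26% of all genes lower and 2.37% higher. The GRKO and WT signals overlapped for all 25 members, while 2.58% of all genes had groups that did not overlap, 1.29% with GRKO below WT and 1.28% with GRKO above.

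**Figure D1:**
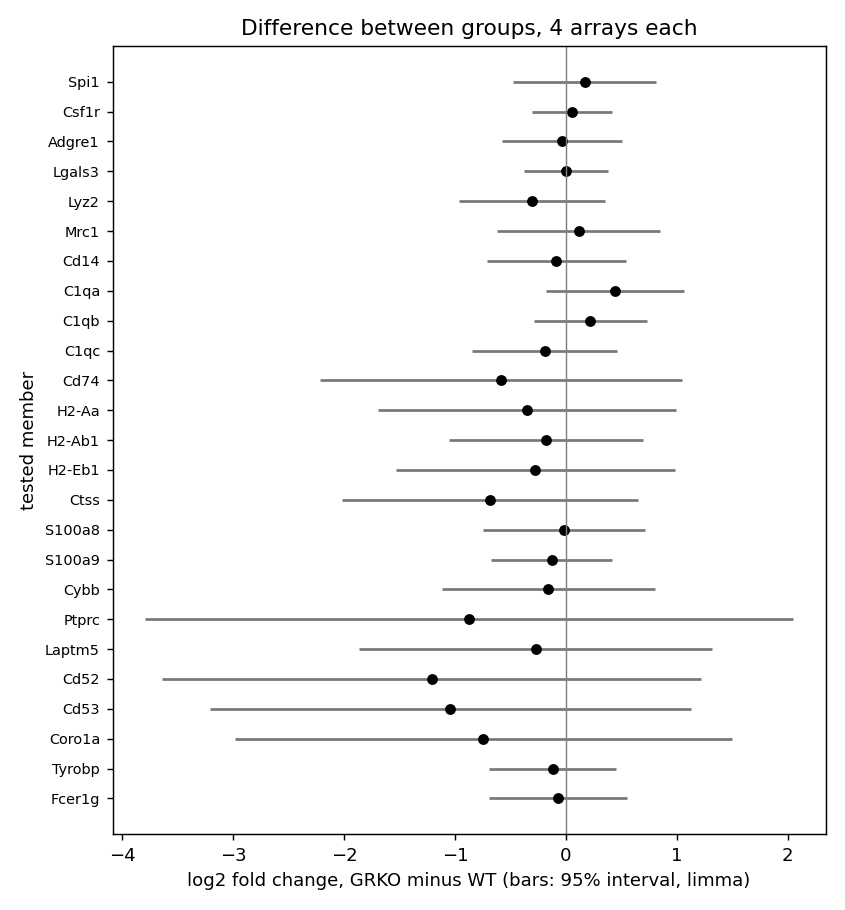
Log2 fold change of each tested member, GRKO minus WT, on the horizontal axis, with the 95% interval of the limma fit as a bar and 4 arrays per group. Every interval includes 0, and the interval of Ptprc, from -3.79 to 2.05, is far wider than that of Csf1r, from -0.31 to 0.41.

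What set the members apart from one another was how much they varied between arrays of the same group. The within-group SD of log2 signal was above 1 for 9 of the 25 tested members, against 1.65% of all genes tested. Without WT replicate 4 it was above 1 for 7 members, against 1.07% of all genes. Those 9 were Ptprc, Cd52, Coro1a, Cd53, Cd74, Laptm5, H2-Aa, Ctss and H2-Eb1. For 6 of them the highest array was at least 10 times the lowest, as it was for 1.27% of all genes. The median within-group SD was 0.53 over the members and 0.29 over all genes tested.

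**Figure D2:**
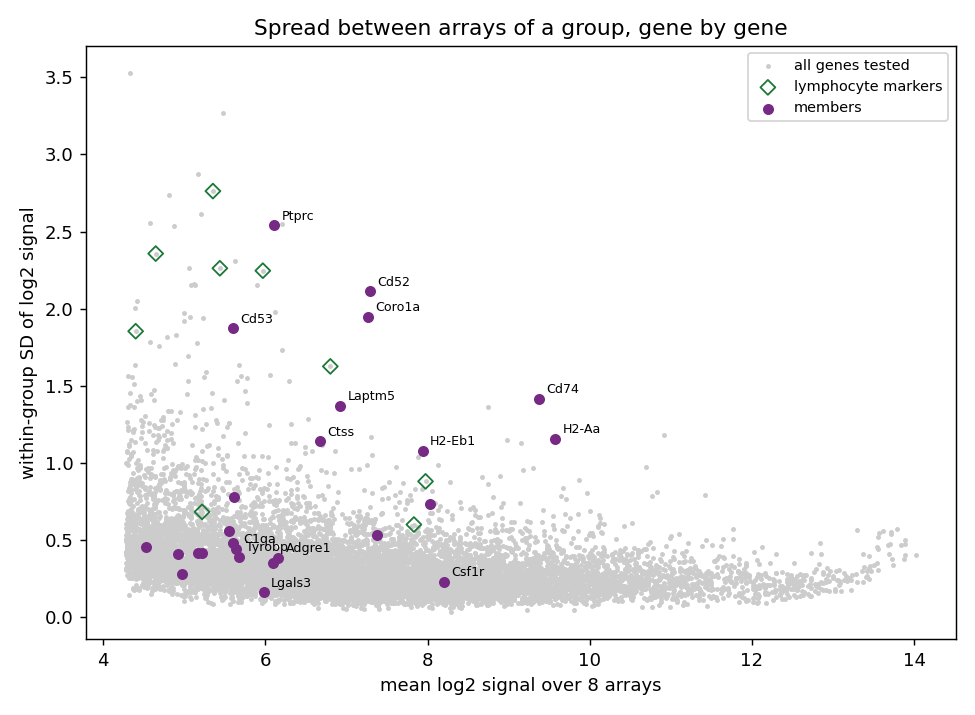
Within-group SD of log2 signal (vertical axis) against mean log2 signal over the 8 arrays (horizontal axis) for all genes tested, with the 25 tested members and 9 lymphocyte markers drawn over them. Ptprc, Cd52, Coro1a and Cd53 lie far above most genes of like signal, as do several lymphocyte markers, while Csf1r and Lgals3 lie within the bulk of the genes.

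**Figure D3:**
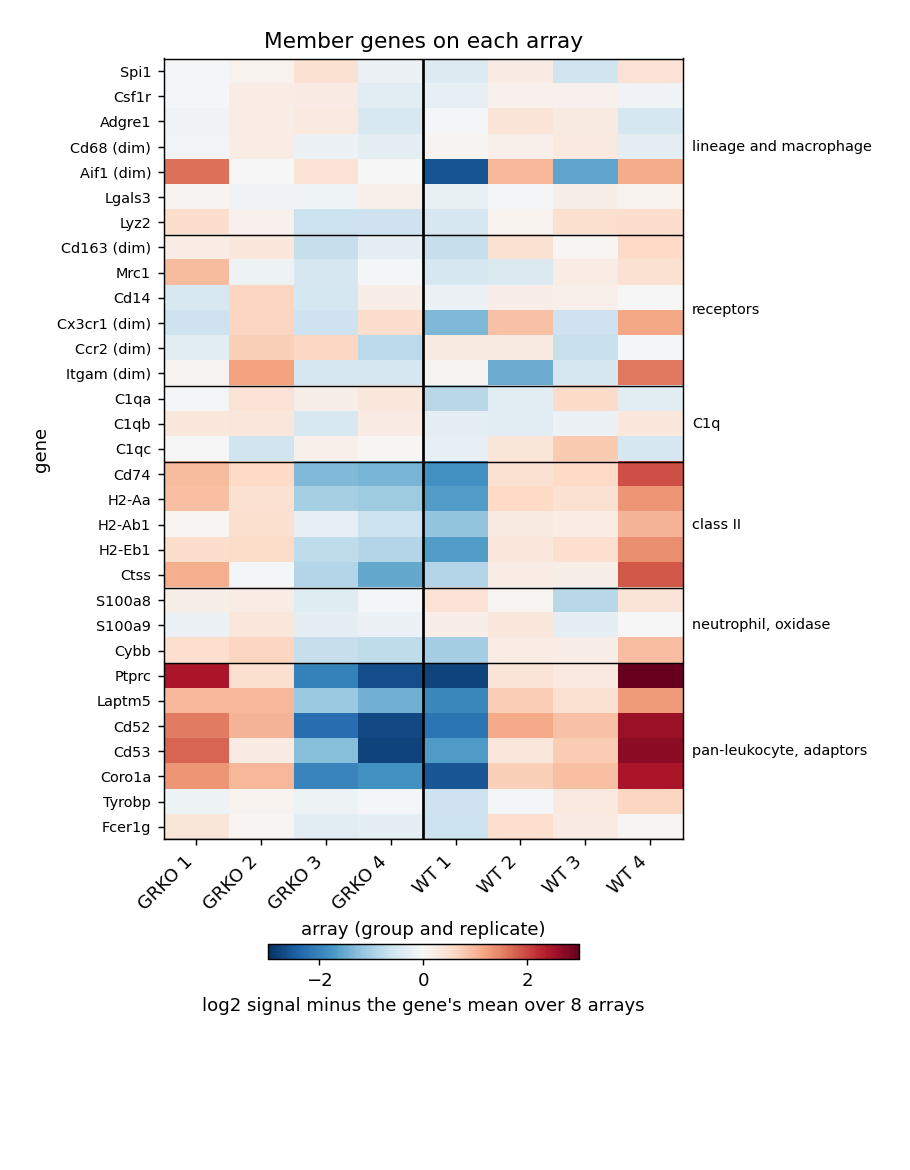
Log2 signal of each member minus its mean over the 8 arrays (colour, saturated at 3 in either direction), with GRKO arrays on the left and WT arrays on the right and genes grouped by role. The rows of Ptprc, Laptm5, Cd52, Cd53, Coro1a and the class II genes are blue on GRKO replicates 3 and 4 and WT replicate 1. They are red on WT replicate 4. H2-Ab1 is an exception, being pale on GRKO replicate 3. The rows of Tyrobp and Fcer1g are paler than most of these, and the rows of Csf1r, Adgre1 and Lgals3 are pale throughout.

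Csf1r varied little across the 8 arrays. This gene, which encodes the receptor for the growth factor that macrophages need to survive, had signals of 288, 345, 351 and 236 on GRKO replicates 1 to 4, against 249, 321, 321 and 276 on WT replicates 1 to 4. The highest array was 1.49 times the lowest, and the group means were 305 ± 54.1 in GRKO and 292 ± 35.5 in WT muscle (SD, n = 4 each). Its log2 fold change was 0.054 ± 0.16 (SE, limma adjusted p = 0.953), with a 95% interval from -0.31 to 0.41. The other probe sets of Csf1r had log2 fold changes of 0.079 and -0.025.

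Adgre1, which encodes the macrophage surface protein F4/80, had groups that covered nearly the same range. Its signals were 66, 84, 88 and 51 in GRKO muscle, against 69, 93, 86 and 50 in WT muscle. Lgals3, a galectin abundant in phagocytes, ranged from 58 to 70 in GRKO and from 54 to 71 in WT muscle, the narrowest spread of any tested member. Spi1, the lineage factor of myeloid cells and B lymphocytes, ranged from 27 to 42 in GRKO and from 20 to 41 in WT muscle. The log2 fold changes of Adgre1, Lgals3 and Spi1 were -0.037, 0.0033 and 0.17.

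Lyz2, the lysozyme of macrophages and neutrophils, varied more than these. It had signals of 241, 181, 106 and 108 on GRKO replicates 1 to 4, against 118, 178, 231 and 238 on WT replicates 1 to 4. GRKO replicates 3 and 4 and WT replicate 1 were its lowest arrays. Its group means were 159 ± 64.9 in GRKO and 191 ± 55.7 in WT muscle (SD, n = 4 each), and its log2 fold change was -0.30 ± 0.30 (SE, limma adjusted p = 0.881). Cd68, a lysosomal glycoprotein widely used as a macrophage marker, was just under the signal filter, at 15 to 21 in GRKO and 15 to 22 in WT muscle. Aif1, which encodes the macrophage and microglial protein IBA1, was dim, at 6 to 19 in GRKO and 1 to 13 in WT muscle.

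Surface receptors of macrophages and monocytes were mostly near or below the filter. Mrc1, the mannose receptor of tissue macrophages, had signals of 90, 42, 33 and 46 in GRKO muscle, against 33, 35, 55 and 65 in WT muscle. GRKO replicate 1 was its highest array, and the remaining GRKO arrays lay within the WT range. Cd14, the co-receptor for bacterial lipopolysaccharide, had 26, 56, 25 and 41 in GRKO muscle, against 32, 41, 40 and 36 in WT muscle. Their log2 fold changes were 0.12 ± 0.33 and -0.085 ± 0.29 (SE), with limma adjusted p-values of 0.949 and 0.956. GRKO replicate 4, low for Lyz2, was not among the 3 lowest arrays for either gene.

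The receptors below the filter had overlapping ranges. Cd163, the haemoglobin scavenger receptor, lay at 9 to 18 in GRKO and 9 to 22 in WT muscle. The chemokine receptor Cx3cr1 lay at 5 to 12 in GRKO and 3 to 17 in WT muscle, and Ccr2, the receptor through which monocytes are recruited, at 10 to 29 in GRKO and 11 to 21 in WT muscle. Itgam, the integrin chain CD11b, lay at 4 to 13 in GRKO and 2 to 17 in WT muscle. Signals this low are noisy, and no order was read from them.

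The chains of C1q, the recognition molecule of the classical complement pathway that tissue macrophages make, had overlapping groups. C1qa had signals of 49, 68, 56 and 62 on GRKO replicates 1 to 4, against 28, 40, 75 and 40 on WT replicates 1 to 4. Its GRKO arrays lay above every WT array except replicate 3, and its log2 fold change, 0.45 ± 0.28 (SE, limma adjusted p = 0.880), was the highest of the tested members. C1qb had 85, 87, 49 and 81 in GRKO muscle, against 57, 55, 60 and 85 in WT muscle. C1qc, which with the other chains forms the same protein, had 49, 32, 54 and 50 in GRKO muscle, against 41, 62, 83 and 34 in WT muscle. The log2 fold changes were 0.22 for C1qb and -0.19 for C1qc, and the other C1qb probe sets had 0.19 and 0.33. Without WT replicate 3 the log2 fold change of C1qa was 0.72, with an unadjusted p under 0.05, and still not past the adjusted threshold, while those of C1qb and C1qc were 0.19 and 0.037.

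Class II genes were bright and spanned a wide range within each group. Cd74, the invariant chain that escorts class II molecules to the compartment where peptides are loaded, had signals of 1293, 1013, 266 and 252 on GRKO replicates 1 to 4, against 188, 915, 1001 and 2564 on WT replicates 1 to 4. H2-Aa, the alpha chain of the I-A molecule, had 1428, 1049, 383 and 365 in GRKO muscle, against 240, 1150, 1041 and 1914 in WT muscle. For both genes GRKO replicates 3 and 4 and WT replicate 1 were the lowest arrays and WT replicate 4 the highest. Group means were 706 ± 529 in GRKO and 1167 ± 1000.2 in WT muscle for Cd74, and 806 ± 523 in GRKO and 1086 ± 685 in WT muscle for H2-Aa (SD, n = 4 each). The log2 fold changes, -0.58 ± 0.74 and -0.35 ± 0.61 (SE), were smaller than their errors (limma adjusted p = 0.901 and 0.923).

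The beta chains had the same low and high arrays. H2-Eb1, the beta chain of I-E, had signals of 357, 363, 144 and 134 in GRKO muscle, against 77, 307, 349 and 651 in WT muscle. H2-Ab1, the beta chain of I-A, had 272, 365, 220 and 169 in GRKO muscle, against 116, 318, 307 and 534 in WT muscle. Ctss, the cathepsin that trims the invariant chain, had 218, 99, 55 and 35 in GRKO muscle, against 55, 118, 115 and 372 in WT muscle. The low and high arrays of H2-Eb1 and Ctss were the same as those of Cd74. The log2 fold change of Ctss was -0.69 ± 0.61 (SE), with a 95% interval from -2.02 to 0.65. Class II genes are closely related, and several of their probe sets carry the suffixes x_at or s_at, which mark probes shared with other transcripts, so their values are not fully separate.

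The calprotectin genes of neutrophils were dim. S100a8 and S100a9, which encode its subunits, are among the most abundant transcripts of neutrophils. S100a8 had signals of 26, 27, 18 and 22 in GRKO muscle, against 31, 24, 13 and 30 in WT muscle. S100a9 had 28, 40, 26 and 28 in GRKO muscle, against 36, 40, 26 and 31 in WT muscle. Their log2 fold changes were -0.015 ± 0.33 and -0.13 ± 0.25 (SE, limma adjusted p = 0.994 and 0.927). The sign for S100a8 was positive after quantile normalization (0.023) and after centring on array medians (0.016). Among 15 further neutrophil genes with a probe set, 2 were above the filter, the gelatinase Mmp9 and the granule protein gene Ngp, with log2 fold changes of 0.43 and 0.10, and 0 passed the threshold.

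Cybb, the membrane subunit of the phagocyte NADPH oxidase, differed from the calprotectin genes. Its signals were 69, 76, 30 and 29 on GRKO replicates 1 to 4, against 24, 57, 56 and 92 on WT replicates 1 to 4. On this probe set the same arrays were low as for the class II genes. The next brightest Cybb probe set had 31, 37, 26 and 8 in GRKO muscle, against 22, 30, 26 and 35 in WT muscle. It was lowest on GRKO replicate 4 and highest on GRKO replicate 2. The oxidase is also present in B lymphocytes. The log2 fold change of Cybb was -0.16 ± 0.44 (SE, limma adjusted p = 0.949).

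Pan-leukocyte genes had the widest range of the members. Ptprc, the phosphatase CD45 of all nucleated blood cells, had signals of 379, 96, 17 and 11 on GRKO replicates 1 to 4, against 10, 91, 84 and 999 on WT replicates 1 to 4. The highest array was 99.9 times the lowest, and both lay in the WT group. Its within-group SD ranked 9 among the 11062 genes tested. The second Ptprc probe set, dimmer on average, had 44, 37, 5 and 1 in GRKO muscle, against 3, 31, 16 and 62 in WT muscle. The same arrays stood out, with GRKO replicates 3 and 4 and WT replicate 1 lowest and WT replicate 4 highest.

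Cd52, a small glycoprotein dense on lymphocytes and monocytes, had 463, 315, 32 and 24 in GRKO muscle, against 34, 346, 287 and 946 in WT muscle. Its log2 fold change of -1.21 ± 1.10 (SE) was the lowest of the tested members and was not past the threshold (limma adjusted p = 0.881, 95% interval from -3.64 to 1.22). Coro1a, the actin regulator coronin of haematopoietic cells, had 383, 306, 39 and 44 in GRKO muscle, against 26, 251, 286 and 846 in WT muscle. Cd53, a tetraspanin of leukocytes, had 162, 57, 20 and 7 in GRKO muscle, against 15, 61, 82 and 309 in WT muscle. In each of these genes 2 GRKO arrays and 1 WT array were far below the rest. The log2 fold changes were -0.74 ± 1.02 for Coro1a and -1.04 ± 0.99 for Cd53 (SE, limma adjusted p = 0.906 and 0.881).

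Laptm5, a lysosomal membrane protein of blood cells, had 244, 243, 56 and 45 in GRKO muscle, against 32, 202, 166 and 295 in WT muscle. The ITAM adaptors, which carry the signal of activating receptors in myeloid and natural killer cells, lacked this range. Tyrobp, known as DAP12, had 46, 55, 46 and 49 in GRKO muscle, against 33, 49, 62 and 79 in WT muscle. Fcer1g, the common chain of Fc receptors, had 48, 39, 30 and 31 in GRKO muscle, against 24, 53, 44 and 38 in WT muscle. The highest array was 2.39 times the lowest for Tyrobp and 2.21 times for Fcer1g, against 9.22 times for Laptm5. Their log2 fold changes were -0.12, -0.072 and, for Laptm5, -0.27. The Laptm5 probe set used carries the suffix x_at. The other Laptm5 probe sets with a mean signal above 19.4 had log2 fold changes of -0.25, -0.35 and 0.064. The last of these lacked the wide range, with 27, 24, 25 and 21 in GRKO muscle, against 18, 26, 32 and 19 in WT muscle.

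**Figure D4:**
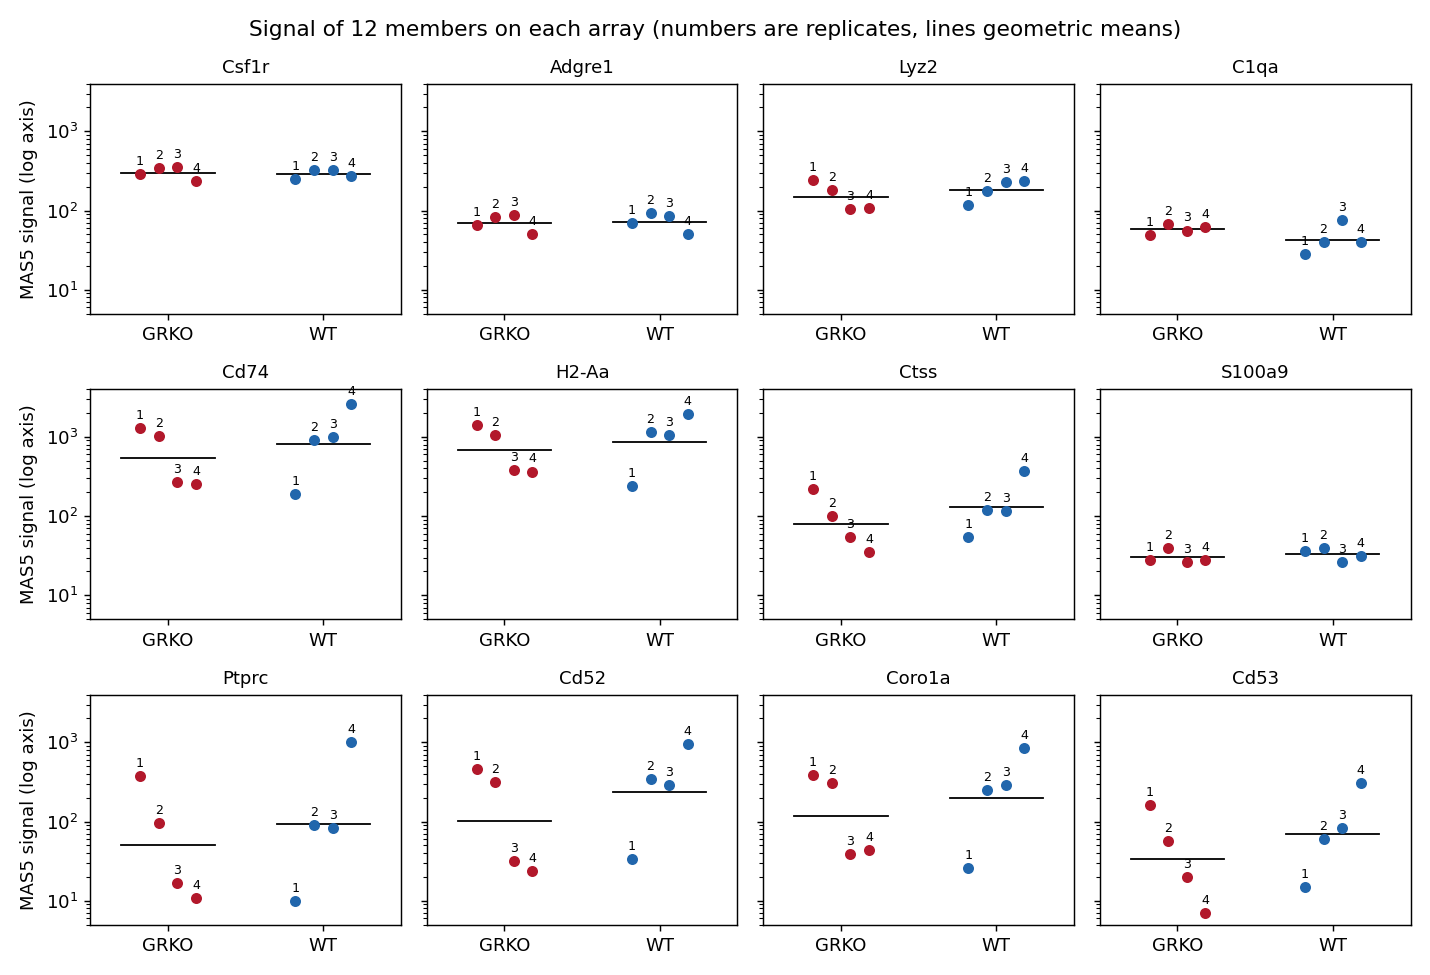
MAS5 signal (vertical axis, logarithmic) of 12 members on the GRKO and WT arrays, each point an array numbered by its replicate and each line a geometric mean. The points of Csf1r, Adgre1 and S100a9 lie close together, while those of Ptprc, Cd52, Coro1a and Cd53 spread widely within each group, with GRKO replicates 3 and 4 and WT replicate 1 at the bottom.

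A score was formed for each array as the mean over the 31 members of the log2 signal minus the gene's mean over the 8 arrays. It was 0.47, 0.37, -0.54 and -0.65 on GRKO replicates 1 to 4, against -0.89, 0.25, 0.12 and 0.87 on WT replicates 1 to 4. The lowest and the highest score both belonged to WT arrays. The group means were -0.087 ± 0.59 in GRKO and 0.087 ± 0.73 in WT muscle (SD, n = 4 each), a difference of -0.17. For 19 of the 25 tested members the log2 fold change was below 0, a share of 76.0%, against 47.8% of all genes tested, and the median was -0.16 over the members and 0.013 over all genes. Members that are high and low on the same arrays are not separate observations, and single arrays moved these values. Without WT replicate 4 the median was 0.036 and 11 members were below 0. The median was -0.35 without WT replicate 1, -0.31 without GRKO replicate 2, -0.10 without WT replicate 2, -0.064 without GRKO replicate 3 and -0.045 without GRKO replicate 4.

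The roles differed in how far their scores spread. Over the 7 pan-leukocyte and adaptor genes the scores were 1.19, 0.56, -1.31 and -1.67 on GRKO replicates 1 to 4, against -1.78, 0.54, 0.54 and 1.93 on WT replicates 1 to 4. Over the 5 class II genes they were 0.71, 0.41, -0.85 and -1.10 on GRKO arrays, against -1.45, 0.37, 0.39 and 1.51 on WT arrays. Both sets were below 0 on the same 3 arrays. For the C1q chains the scores stayed between -0.052 and 0.20 on GRKO arrays and between -0.45 and 0.39 on WT arrays.

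**Figure D5:**
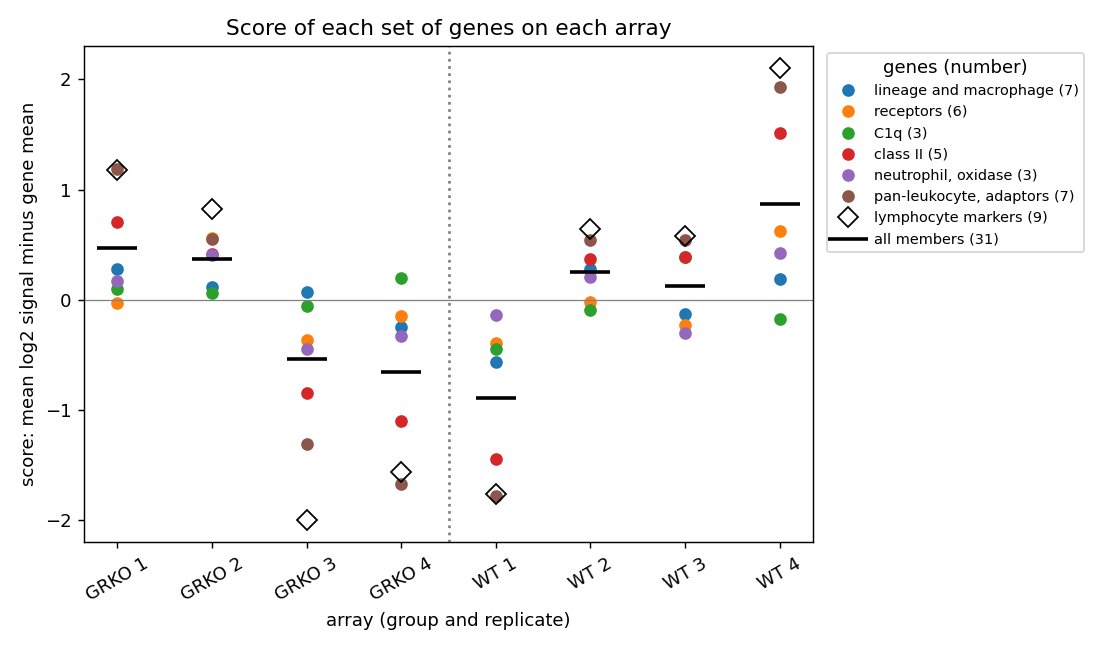
Score of each set of genes (vertical axis, mean log2 signal minus the gene's mean) on each array, with GRKO arrays left of the dotted line and WT arrays right of it. The pan-leukocyte, class II and lymphocyte marker scores are below 0 on GRKO replicates 3 and 4 and WT replicate 1. The receptor and neutrophil scores are below 0 there too. All sets but the pan-leukocyte, class II and lymphocyte ones lie closer to 0 on those arrays and on WT replicate 4, though not on every array.

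The position of each array was counted over the 25 tested members. WT replicate 1 was among the 3 lowest arrays for 22 members, against 40.8% of all genes tested. GRKO replicate 3 was among them for 20 members and GRKO replicate 4 for 18, against 36.1% and 37.1% of all genes. WT replicate 4 was the highest array for 12 of the 25 members, against 26.7% of all genes. The low arrays came from both groups.

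The score of lymphocyte markers was low and high on the same arrays as those of the pan-leukocyte and class II genes. Of 22 listed, 18 had a probe set and 9 were tested. Their score was 1.18, 0.82, -1.99 and -1.56 on GRKO replicates 1 to 4, against -1.77, 0.65, 0.58 and 2.10 on WT replicates 1 to 4. The summed signal of the 18 markers was 492 to 1905 on GRKO arrays and 396 to 3407 on WT arrays. Cd3g, a chain of the T cell receptor complex, had 77, 62, 0 and 7 in GRKO muscle, against 12, 44, 54 and 164 in WT muscle, and Cd8a, the co-receptor of cytotoxic T cells, had 41, 53, 21 and 20 in GRKO muscle, against 35, 29, 49 and 82 in WT muscle, so that its lowest WT array was replicate 2. Cd79b, a signalling chain of the B cell receptor that was chosen after its values were seen, had 184, 118, 7 and 3 in GRKO muscle, against 5, 120, 93 and 307 in WT muscle. The low arrays of Cd3g and Cd79b were those of Ptprc. The part of lymphocyte content in the spread of the members was not tested, nor whether these transcripts came from cells within the muscle or from tissue taken with it. In a fit with the lymphocyte score as a covariate, chosen after seeing the data, 8 of the 25 members were below 0, their median was 0.085, and 0 passed the threshold in either direction.

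Further genes of the same cells did not pass the test either. Of 56 further macrophage genes, 52 had a probe set and 36 were tested. Of these, 14 had a log2 fold change below 0, 22 had one above 0 and 0 passed the threshold. The score of the 36 was 0.22, 0.17, -0.16 and -0.29 on GRKO replicates 1 to 4. On WT replicates 1 to 4 it was -0.59, 0.11, 0.15 and 0.37. The 3 lowest arrays and the highest array of this score were those of Cd74, but not every gene followed it. Pf4 and Cbr2, chosen after their values were seen, were both lowest on WT replicate 4. Pf4 had 132, 163, 169 and 159 in GRKO muscle, against 125, 168, 161 and 96 in WT muscle. Cbr2 had 343, 554, 584 and 724 in GRKO muscle, against 431, 866, 580 and 293 in WT muscle. The median within-group SD of the 36 genes was 0.41, and some varied far more. Rac2, chosen after its values were seen, had 173, 109, 22 and 25 in GRKO muscle, against 14, 134, 143 and 315 in WT muscle. The scavenger receptor gene Stab1 had 87, 107, 137 and 104 in GRKO muscle, against 67, 87, 90 and 72 in WT muscle (log2 fold change 0.45 ± 0.18 SE, limma adjusted p = 0.880). Csf1, the ligand of the receptor encoded by Csf1r, ranged from 112 to 147 in GRKO and from 96 to 118 in WT muscle. Of 18 further class II and dendritic cell genes, 15 had a probe set and 8 were tested, with 6 below 0 and 0 past the threshold. Irf8, a transcription factor of dendritic cells and B lymphocytes, had a log2 fold change of -0.58. H2-Oa, a chain of the modifier of peptide loading found in B lymphocytes, had 86, 41, 4 and 8 in GRKO muscle, against 11, 54, 35 and 146 in WT muscle, with the same 3 lowest arrays and the same highest array as Cd74.

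No tested set of markers of other cells had GRKO replicates 3 and 4 and WT replicate 1 as its 3 lowest arrays. The muscle fibre score, like the member score, was highest on WT replicate 4, at 0.58. The 3 tested erythrocyte markers had scores of 0.11, 0.19, -0.39 and 0.28 on GRKO replicates 1 to 4, against -0.20, -0.28, 0.61 and -0.32 on WT replicates 1 to 4. All 9 mast cell markers were below the signal filter. Endothelial markers had 13 of 14 log2 fold changes above 0, fibroblast and matrix markers 10 of 14 and Schwann cell markers 5 of 5. Adipocyte markers had 1 of 4 and muscle fibre genes 2 of 15, against 5770 of all 11062 genes. None of them passed the adjusted threshold. At an unadjusted limma p under 0.05 there were 5 endothelial and 3 fibroblast and matrix markers, against 512 of all genes. Groups overlapped for 11 of the 14 endothelial markers, against 10777 of all genes. The endothelial score was highest on GRKO replicate 4, at 0.45, and lowest on WT replicate 4, at -0.42, which was the array with the highest member score.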

How the data were processed

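The deposited table holds array intensities that the authors made with MAS5, per the submitters' processing notes, as whole-number signals on a linear scale. Its version, scaling target and detection calls are not given in the sources used. Every array had a trimmed mean of 99.96 (2% left out at either end). Probe sets were named by the platform annotation, with symbols updated by gene identifier through RefSeq for 34741 of the 34945 single-gene probe sets.

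Signals were taken as log2 with no pseudocount, a value of 0 being set to the smallest positive value of its array (1 value among genes tested). Genes whose brightest probe set lay above a signal of 19.4 were fitted with limma 3.58.1 in R 4.3.3 (lmFit, then eBayes with trend, two-sided), on the group alone, with Benjamini-Hochberg adjustment over 11062 genes. Fold changes are GRKO minus WT. The number of arrays limits the precision. The fit was tested on simulated data in which each gene varied independently of the others. That test does not cover genes that are high and low on the same arrays. Figures used matplotlib 3.10.9.

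The members, lists and tests were chosen with earlier results of these data known. Per-array signals are given for the brightest 2 tested members of each role, for the member of each role with the smallest p, and for others whose spread the text describes. From each list of other immune genes the 2 with the smallest p are named, with Cd79b, Rac2, Pf4 and Cbr2 added after their values were seen. Alternatives were quantile normalization, median centring, pseudocounts of 2 and 6, no filter, a 70th percentile filter, averaged probe sets, array weights, eBayes with a robust prior or with no trend, a block for replicate number, leaving out each array, and, added later, a lymphocyte score covariate.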

Additional observations from a re-analysis of the deposited data

Results flagged for a closer look

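One signal stood away from the other arrays of its group by Dixon's criterion for 4 samples. C1qb on GRKO replicate 3 had a signal of 49, against 85, 87 and 81 on GRKO replicates 1, 2 and 4, and 55 to 85 on the WT arrays. The gap made up 0.876 of the group's range on the log2 scale. The other C1qb probe sets did not show it. On GRKO replicates 1 to 4 they had signals of 39, 72, 47 and 41, and of 36, 39, 37 and 34. In all, 76 groups of 4 values (members and their scores) were examined, and chance flags about 1 in 20. The wide ranges of Ptprc, Cd52, Coro1a and Cd74 were not singled out this way, because several arrays of a group lay far from one another.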

How the results depend on the processing

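No member passed the adjusted threshold under any alternative, single arrays left out included, and the smallest adjusted p of a member in each of these fits lay between 0.464 and 0.9995. The count below 0 was 11 of 14 tested members with the 70th percentile filter and 8 of 25 with the lymphocyte score as covariate, and 11 to 21 with single arrays left out. With single arrays left out the median lay between -0.35 and 0.036 and the score difference between -0.50 and 0.087. Filters, priors and the block leave a log2 fold change as it is (114 member values). Of 150 member values under the other alternatives that kept all arrays, the covariate aside, 144 kept their sign. The exceptions were Adgre1 (0.041) and S100a8 (0.023) after quantile normalization, S100a8 after median centring (0.016) and with array weights (0.066), Lgals3 with array weights (-0.0041), and Cd53 with averaged probe sets (0.15), which include a dim one. Members whose sign changed with the lymphocyte covariate had log2 fold changes of 0.093 for Cd74, 0.20 for H2-Aa, 0.13 for H2-Ab1, 0.22 for H2-Eb1, 0.024 for S100a8, 0.22 for Cybb, 0.31 for Ptprc, 0.37 for Laptm5, 0.19 for Coro1a, 0.016 for Tyrobp and 0.081 for Fcer1g. The 8 members below 0 in that fit included Cd52 (-0.20), Cd53 (-0.20), Ctss (-0.18) and C1qc (-0.25). The cause of the sign changes was not tested. With single arrays left out, the sign changed for 16 of the 25 tested members: Spi1 (-0.0046 to 0.34), Csf1r (-0.019 to 0.17), Adgre1 (-0.22 to 0.12), Lgals3 (-0.072 to 0.060), Mrc1 (-0.17 to 0.31), Cd14 (-0.31 to 0.076), C1qc (-0.39 to 0.037), H2-Aa (-0.96 to 0.036), H2-Ab1 (-0.60 to 0.13), H2-Eb1 (-0.88 to 0.15), S100a8 (-0.29 to 0.12), Cybb (-0.52 to 0.12), Ptprc (-1.95 to 0.27), Laptm5 (-0.96 to 0.16), Tyrobp (-0.35 to 0.073) and Fcer1g (-0.30 to 0.085). The replicate numbers were not taken to pair the arrays. The deviations of same-numbered arrays from their group means correlated at -0.192, 0.181, 0.111 and -0.395 over 11062 genes. These values cannot tell whether the arrays are paired, because the deviations within a group sum to 0. With the replicate block 0 members passed, 19 were below 0 and the median was -0.16, while 1 gene of all passed in place of 6. With 4 arrays a group, changes as large as -1.21 in genes as variable as Cd52 were not detectable, and members below the filter have no usable fold change.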

Other observations

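The genes with the widest spread within a group, over all 11062 genes tested, included many genes of lymphocytes. Of the 20 with the highest within-group SD of log2 signal, 2 were members, Ptprc and Cd52, and 4 were on the lymphocyte list, Cd3g, Cd79a, Cd79b and Ms4a1. Trbv1, a variable segment of the T cell receptor, ranked first, with signals of 124, 85, 2 and 1 on GRKO replicates 1 to 4, against 1, 70, 83 and 220 on WT replicates 1 to 4. Ltb, the lymphotoxin beta gene, ranked next, with 211, 178, 2 and 16 in GRKO muscle, against 2, 128, 142 and 368 in WT muscle. Fcer2a, the low-affinity IgE receptor CD23 of B lymphocytes, had 187, 133, 5 and 2 in GRKO muscle, against 5, 129, 123 and 145 in WT muscle. The immunoglobulin segment Ighv14-2 had 275, 172, 21 and 12 in GRKO muscle, against 6, 161, 123 and 642 in WT muscle.

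In each of these genes GRKO replicates 3 and 4 and WT replicate 1 were the lowest arrays. Ikzf1, the lymphoid transcription factor Ikaros, had 118, 94, 2 and 4 in GRKO muscle, against 4, 78, 88 and 159 in WT muscle, again with those arrays lowest. These genes were picked after their spread was seen, and the source of the spread was not tested.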
